A study of Homo sapiens with 15 samples.

Results

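The comparison described here is that of alloxan alone in IL-1β-stimulated MH7A cells, 3 arrays of cells given alloxan and IL-1β against 3 arrays of cells given IL-1β alone. The 6 arrays were taken by their labels out of 15, and each alloxan array was paired with the IL-1β array of the same repeat of the experiment. In both groups MH7A cells received IL-1β at 15 pg/ml for 13 h. For the alloxan group the inhibitor is taken to have been put on at 5 mM and reduced 30 min later to 2 mM. IL-1β is taken to have followed 2.5 h after that. None of these 6 cultures received glucosamine (GlcN), which was the subject of the study, and no array held cells given alloxan without IL-1β. The question is how mRNA levels differed with the OGT inhibitor by itself, on the stimulated background against which the GlcN cultures were read. The 9 arrays left were of resting cells, of GlcN (5 mM, begun 2.5 h before IL-1β) and of GlcN with alloxan, 3 each, both GlcN groups with IL-1β. The protocol gives the alloxan doses for cultures that also held GlcN and names no others, so the same doses and times were assumed for alloxan alone.

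MH7A is an established human synovial line that was immortalised with a viral large T antigen, a protein known to bind p53, so that the results hold for 1 line grown in 3 repeats. Alloxan is a pyrimidine derivative that inhibits O-GlcNAc transferase (OGT), the enzyme that puts single N-acetylglucosamine residues on serines and threonines of nuclear and cytoplasmic proteins. The donor sugar comes from the hexosamine pathway, which branches off from glycolysis, and O-GlcNAcase (OGA) takes the residue off again. Alloxan is not selective: it also cycles between oxidised and reduced forms with thiols, which releases reactive oxygen species and underlies its use to destroy pancreatic beta cells. These are known properties of the compound and not results of these arrays.

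Values were log2 signals from Affymetrix Human Gene 1.0 ST arrays, summarised by the authors with RMA, 1 value per transcript cluster. Array medians ran from 6.21 in experiment 1 through 7.15 and 7.19 in experiment 2 to 7.51 and 7.53 in experiment 3, so a level compares only within an experiment and errors are given as the SD of the 3 within-experiment differences (n = 3 throughout). On the arrays of IL-1β alone 11 of 18 tested fibroblast markers lay above the 50th percentile of genes. VIM, COL1A1, FN1 and SPARC, which mesenchymal cells in general express, lay above the 90th. The other markers of the list were split. THY1, CD55, PDGFRB, LUM, COL1A2, COL3A1 and COL6A1 lay above the 50th percentile but not above the 90th. PDPN, FAP, CDH11, PDGFRA, S100A4, VCAM1 and HAS2 lay below the 50th percentile, and PRG4 and DCN did not pass the filter on low values. Of 7 leukocyte markers 1 (CD68) and of 5 endothelial markers 0 lay above the 50th percentile, and PTPRC, MS4A1 and LYZ did not pass the filter. Of 6 epithelial markers 3 lay above the 50th percentile, with KRT18 above the 90th and EPCAM, CDH1 and KRT5 below the 50th. With alloxan 0 of 7 leukocyte and 0 of 5 endothelial markers were called, 1 of 6 epithelial markers (CDH1) fell, and 6 of 18 fibroblast markers fell (33.3% against 7.21% of all genes). Of the genes tested, 19.4%, 19% and 15.5% carried exactly the same value on both arrays of experiments 1, 2 and 3. In bulk RNA a lower level per cell and fewer cells with the transcript cannot be told apart.

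Alloxan changed many genes by small amounts. In limma, blocked by experiment, 1034 of 16872 tested genes (6.13%) rose and 1216 (7.21%) fell at an adjusted p under 0.05. The called genes had a median log2 difference of 0.31 when higher and -0.38 when lower. At 1.5-fold with an unadjusted p under 0.05, the thresholds of the study, 121 genes (0.717%) were higher and 237 (1.4%) lower. At 2-fold and the adjusted threshold 10 were higher and 39 lower, so the larger changes ran downward. The median log2 difference of all genes was 0.01, and the differences of any 2 experiments correlated across genes with r from 0.53 to 0.66, a description over genes of 1 cell line. Of the genes called higher, 1031 of 1034 had a positive difference in all 3 experiments, and of those called lower, 1206 of 1216 a negative one. Such agreement goes with their choice on these same differences. Of all 16872 genes 6173 had the same direction in all 3 experiments. These calls rest on the spread of all 15 arrays and on the block. With the block over only the 6 arrays compared, and in the fit without it, 0 genes passed the adjusted threshold in either direction, while the counts at 1.5-fold and unadjusted p were 102 higher and 227 lower over the 6 arrays and 5 and 23 without the block. Without experiments 1, 2 and 3 there were 263, 294 and 356 genes higher and 509, 591 and 405 lower at the adjusted threshold. All 15 arrays had 2378 genes higher and 2038 lower at an unadjusted p under 0.05.

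GDF15, a secreted stress cytokine of the TGF-β superfamily, read 8.64, 9.98 and 9.86 with IL-1β alone and 10.29, 11.38 and 11.69 with alloxan. All alloxan arrays lay above all IL-1β arrays, and the log2 difference was 1.63 ± 0.21 (adjusted p = 9.43e-06), or 3.09-fold. EGR1, a zinc finger transcription factor of the early response to growth factors and stress, read 9.80, 10.77 and 11.13 with IL-1β alone and 11.21, 12.31 and 12.26 with alloxan. Its groups did not overlap either, with a difference of 1.36 ± 0.21 (adjusted p = 2.85e-05), or 2.56-fold. The largest rise of all genes was that of ZNF619, a KRAB zinc finger gene, which read 5.82, 5.80 and 7.24 with IL-1β alone and 7.52, 8.09 and 8.41 with alloxan. Its difference was 1.72 ± 0.56 (adjusted p = 0.000209), with the largest step in experiment 2. The same held for most of the top of the list. Of the 15 genes with the largest rises, 14 had their largest difference in experiment 2. The groups did not overlap in 3 of them, against 9 of all tested genes (0.0533%), a count that goes with their choice by size in the same comparison. Besides the genes already named these were SDR42E1 (a short-chain dehydrogenase, 1.65), PGBD1 (derived from a piggyBac transposase, 1.51), EEF1AKMT2 (a methyltransferase of elongation factor 1A, 1.07), ZSCAN26 (a SCAN zinc finger gene, 1.07), THG1L (a tRNA-histidine guanylyltransferase, 1.06), TUBGCP3 (a subunit of the γ-tubulin ring complex, 1.01), RAD54L2 (0.99), UQCC3 (an assembly factor of respiratory complex III, 0.96), RIOK2 (a kinase of 40S ribosome maturation, 0.95), VPS4A (the ATPase of ESCRT-III, 0.94), C17orf75 (1.03) and ANKRD46 (0.99). Without experiment 2 all 15 stayed past the adjusted threshold, with differences from 0.62 to 1.74. Without experiment 1 there were 9 and without experiment 3 there were 12 that passed.

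CD180, a Toll-like receptor homologue known from B cells, had the largest fall of all genes. It read 7.37, 8.98 and 8.04 with IL-1β alone and 4.87, 6.40 and 6.36 with alloxan, so that every alloxan array lay below every IL-1β array, and its difference was -2.25 ± 0.50 (adjusted p = 0.00016). TENM2, a teneurin adhesion protein of neurons, read 8.93, 9.96 and 10.40 with IL-1β alone and 7.17, 8.47 and 8.67 with alloxan. Its groups did not overlap and its difference of -1.66 ± 0.15 (adjusted p = 9.89e-07) had the smallest p-value of the comparison. TGFB2, the transforming growth factor β2 ligand, read 9.26, 10.14 and 9.74 with IL-1β alone and 7.76, 8.44 and 8.53 with alloxan. It too was lower on all alloxan arrays than on any IL-1β array (-1.47 ± 0.24, adjusted p = 7.03e-05). The next were DCDC2 (a doublecortin family protein of cilia, -1.54), CPED1 (-1.51), PCDH15 (a cadherin of hair cell tip links, -1.41), SLC39A10 (a zinc importer, -1.35), SYT1 (a calcium sensor of vesicle fusion, -1.31), SEMA3A (a secreted axon guidance cue, -1.30), ZRANB3 (a DNA translocase of stalled replication forks, -1.28), LGR5 (a receptor for R-spondins, -1.25), DPYD (the first enzyme of pyrimidine breakdown, -1.24), CCBE1 (a secreted factor of lymphatic growth, -1.23), GRPR (the gastrin-releasing peptide receptor, -1.23) and RBMS3 (an RNA-binding protein, -1.22). With experiment 1, 2 or 3 left out, 14 of these 15 genes passed each time. SLC39A10 lost its call without experiment 1 (-1.31) or 2 (-1.54), and LGR5 without experiment 3 (-1.24). Experiment 2 had the largest difference in 4 of the 15, and the groups did not overlap in 7, against 23 of all tested genes (0.136%), again in genes taken for their size.

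**Figure D1:**
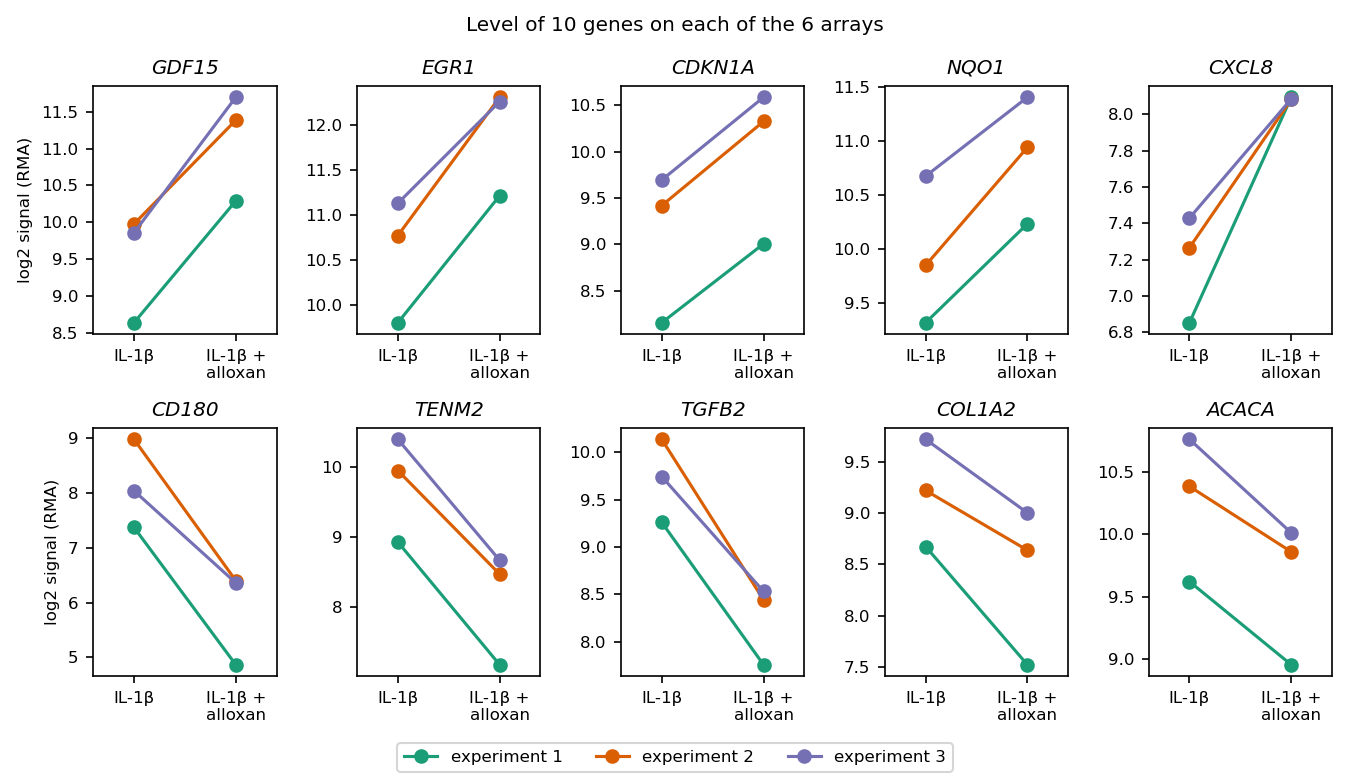
Log2 RMA signal (y axis, own scale per panel) of 10 genes on the IL-1β arrays and the arrays of IL-1β with alloxan (x axis). Points are arrays, and lines and colours join the arrays of 1 experiment. GDF15, EGR1, CDKN1A, NQO1 and CXCL8 were higher with alloxan in all 3 experiments, and CD180, TENM2, TGFB2, COL1A2 and ACACA lower.

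The gene of the enzyme that alloxan inhibits was not called. OGT read 9.01, 10.05 and 10.43 with IL-1β alone and 8.84, 10.05 and 10.19 with alloxan, a difference of -0.14 ± 0.12 (adjusted p = 0.333) with a 95% interval from -0.32 to 0.04. OGA, the opposing enzyme, read 9.40, 9.96 and 10.37 with IL-1β alone and 9.45, 10.04 and 10.23 with alloxan, a difference of 0.00 ± 0.12 (adjusted p = 1) with an interval from -0.19 to 0.19. Of 12 tested genes of the hexosamine pathway and O-GlcNAc cycling 0 were called, with a median of -0.04. Of all genes 6.13% were higher and 7.21% lower, so in a list this short 0 calls lies near these shares. Within the list GFPT1, the rate-limiting enzyme of the pathway, differed by -0.08 ± 0.14 (adjusted p = 0.591), GNPDA2 by -0.35 ± 0.28 (adjusted p = 0.108), NAGK by -0.11 ± 0.051 (adjusted p = 0.289) and UAP1L1 by 0.16 ± 0.13 (adjusted p = 0.0941). mRNA levels say nothing of OGT activity or of O-GlcNAc on proteins, which the arrays did not measure. The study blotted for O-GlcNAc and reports that alloxan did not substantially change it in IL-1β-stimulated cells without GlcN. There it lowered the O-GlcNAc signal that GlcN had raised. Whether the differences described here go through O-GlcNAc was not tested.

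The cytokine genes on which the study turned responded unequally. CXCL8, which encodes the neutrophil chemokine IL-8, read 6.85, 7.26 and 7.43 with IL-1β alone and 8.09, 8.08 and 8.08 with alloxan. The 3 alloxan arrays had nearly the same value although the experiments differ in level, and each lay above the IL-1β array of its experiment. The difference was 0.90 ± 0.30 (adjusted p = 0.0186), or 1.87-fold. TNF read 5.64, 6.73 and 7.10 with IL-1β alone and 5.66, 6.80 and 7.14 with alloxan, which was 0.04 ± 0.023 (adjusted p = 0.873) with a 95% interval from -0.17 to 0.25. IL6 read 8.03, 8.63 and 8.59 with IL-1β alone and 7.75, 8.09 and 8.77 with alloxan, lower in 2 of 3 experiments and higher in the third. Its difference was -0.21 ± 0.37 (adjusted p = 0.58), with a wide interval from -0.65 to 0.22. IL24, an IL-10 family cytokine, differed by 0.10 ± 0.27 (adjusted p = 0.697). C3, the central complement component, read 7.54, 7.47 and 8.01 with IL-1β alone and 6.38, 6.99 and 7.38 with alloxan. Its difference was -0.76 ± 0.36, and its adjusted p = 0.0519 missed the threshold. TNFRSF9 (-0.05 ± 0.23, adjusted p = 0.972), the NF-κB inhibitor gene NFKBIA (0.22 ± 0.17, adjusted p = 0.447), NFE2L3 (-0.36 ± 0.14, adjusted p = 0.121) and the tight junction gene CLDN1 (-0.42 ± 0.34, adjusted p = 0.115) were not called. Over 54 tested cytokine and chemokine genes 3 were higher (5.56%) and 2 lower (3.7%), against 6.13% and 7.21% of all genes. CXCL2 (0.32) and TGFB3 (0.34) rose with CXCL8, and CCL5 (-0.20) fell with TGFB2. CXCL8 lost its call without experiment 2 (0.95) or 3 (1.03), without the alloxan array of experiment 1 (0.61) and without the IL-1β array of experiment 2 or 3 (0.86 each), and was higher with alloxan in all of these.

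NF-κB is activated below the IL-1 receptor. Among its 38 tested targets and feedback inhibitors 6 rose (15.8%) and 1 fell (2.63%), with a median of 0.09. Of all genes 6.13% rose and 7.21% fell. Those that rose included CYLD, a deubiquitinase that restrains the pathway (0.69), IRF1 (0.51), the inhibitor NFKBIE (0.34) and the subunit RELA (0.29). The number higher was 3, 3 and 2 without experiments 1, 2 and 3 and 3 without the IL-1β array of experiment 3. Within IL-1 signalling 2 of 26 genes rose and 0 fell, 7.69% against 6.13% of all genes. These were TRAF6, the ubiquitin ligase below the receptor, which read 7.78, 8.09 and 8.96 with IL-1β alone and 8.46, 9.27 and 9.71 with alloxan (difference 0.87 ± 0.27, adjusted p = 0.00053), and TOLLIP (0.27). Of 35 interferon-stimulated genes 0 rose and 3 fell, namely DDX60 (-0.84), IFIT1 (-0.55) and the RNA sensor RIGI (-0.42), a share of 8.57% against 7.21% of all genes. The number was 1, 2 and 0 without experiments 1, 2 and 3, 1 without the alloxan or IL-1β array of experiment 1 or 3, and 5 without the GlcN array of experiment 1, which enters through the shared spread. Of 21 genes of prostaglandin synthesis and its receptors 0 were called.

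Targets of p53, the transcription factor of DNA damage and other stresses, were among the genes that rose. Of 31 tested targets 18 were higher and 0 lower, 58.1% against 6.13% of all genes, and 27 of 31 had a positive difference. The median was 0.26 over the experiments and 0.27, 0.28 and 0.25 in experiments 1, 2 and 3, against 0.01 over all genes. CDKN1A, the cyclin-dependent kinase inhibitor p21 that halts the cell cycle, read 8.15, 9.42 and 9.69 with IL-1β alone and 9.01, 10.33 and 10.59 with alloxan. It rose by nearly the same amount in each experiment (0.88 ± 0.029, adjusted p = 3.17e-05). SESN2, a stress sensor that restrains mTORC1, read 6.81, 8.26 and 8.54 with IL-1β alone and 7.66, 8.96 and 9.37 with alloxan (0.80 ± 0.084, adjusted p = 3.17e-05). TP53INP1, a cofactor of p53 in autophagy and apoptosis, rose by 0.77 ± 0.10 (adjusted p = 5.55e-05) and TNFRSF10B, the death receptor DR5, by 0.48 ± 0.05 (adjusted p = 0.000197). GDF15 belongs to this list as well. The count was 13, 10 and 11 without experiments 1, 2 and 3, with 0 lower each time. Apoptosis regulators, which share members with the p53 list, had 8 of 33 higher (24.2%) and 0 lower and a median of 0.05. The other leading members were the death receptor FAS (0.59), the anti-apoptotic MCL1 (0.32) and the pro-apoptotic BAK1 (0.41) and PMAIP1 (0.36). The number higher was 6, 3 and 2 without experiments 1, 2 and 3 and 5 without the IL-1β array of experiment 2. The apoptosis list holds both promoters and inhibitors of cell death, and cell death itself was not measured on the arrays.

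Immediate early genes, which are transcribed within minutes of a stimulus and are usually silent again after hours, ran upward as well. Of 34 tested 16 were higher (47.1% against 6.13% of all genes) and 0 lower, with a median of 0.18, or 0.20, 0.17 and 0.20 in the 3 experiments. After EGR1 those with the smallest p-values were the orphan nuclear receptor NR4A1 (0.58 ± 0.027, adjusted p = 0.000197), FOSB, a partner of AP-1 (0.51 ± 0.067, adjusted p = 0.000752), the stress-induced repressor ATF3 (0.55 ± 0.19, adjusted p = 0.00122) and NR4A2 (0.65 ± 0.21, adjusted p = 0.00173). NR4A1 read 7.11, 8.38 and 8.66 with IL-1β alone and 7.67, 8.98 and 9.26 with alloxan, so that each experiment gave almost the same step. The count fell to 4, 7 and 7 without experiments 1, 2 and 3, again with 0 lower, and to 10 without the alloxan array of experiment 3. Of 31 feedback genes of ERK signalling 5 were higher (16.1%) and 1 lower (3.23%, against 7.21% of all genes) with a median of 0.09. The phosphatases DUSP6 (0.72 ± 0.11, adjusted p = 0.00106) and DUSP16 (0.36), the inhibitor SPRY4 (0.68) and the ETS factor ETV4 (0.61) rose, and the ephrin receptor EPHA4 (-0.47) fell. The number higher was 3, 2 and 1 without experiments 1, 2 and 3 and 3 without either array of experiment 2.

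**Figure D2:**
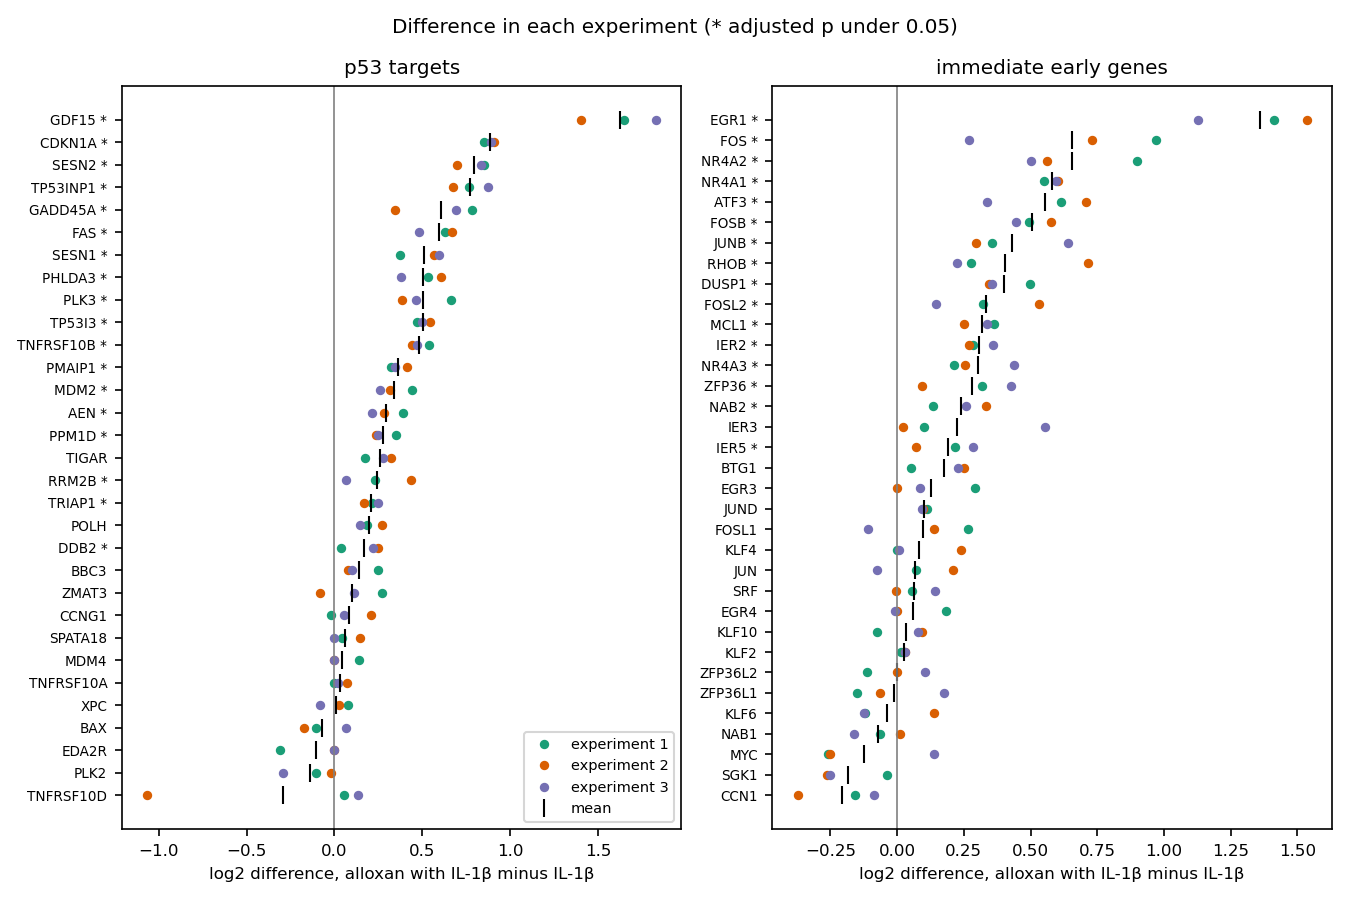
Log2 difference between alloxan with IL-1β and IL-1β alone (x axis) for all tested p53 targets (left) and immediate early genes (right). Coloured points are the 3 experiments, black bars their mean, and asterisks mark the 18 and 16 genes called in limma at an adjusted p under 0.05. The called genes of both lists lie to the right of 0.

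Genes of the oxidant and metal responses moved in part. NRF2, released from KEAP1 by oxidants and electrophiles, drives the antioxidant genes. Of these 8 of 45 rose (17.8%) and 2 fell (4.44%), with a median of 0.10, against 6.13% and 7.21% of all genes. NQO1, the quinone reductase that is its best-known target, read 9.31, 9.85 and 10.68 with IL-1β alone and 10.23, 10.94 and 11.41 with alloxan and rose by 0.92 ± 0.18 (adjusted p = 5.18e-05), or 1.89-fold. EPHX1, a microsomal epoxide hydrolase (0.53), and SQSTM1, the autophagy receptor p62 (0.39), also rose. The glutathione conjugate pump ABCC1 (-0.38) and the taurine transporter SLC6A6 (-0.40) fell. The number higher was 2, 4 and 4 without experiments 1, 2 and 3. Of 26 heat shock chaperone genes 1 rose (3.85%) and 2 fell (7.69%), near the shares of all genes. Of 20 genes of metallothioneins and zinc handling 4 rose (20%) and 2 fell (10%). MT1X, a metal-buffering metallothionein, read 9.73, 10.96 and 11.07 with IL-1β alone and 10.02, 11.39 and 11.45 with alloxan (0.37 ± 0.075, adjusted p = 0.0068) and MT1E rose by 0.52. Metallothionein genes are so alike that probes can read several of them. The zinc exporter SLC30A4 rose (0.39), and the zinc importers SLC39A14 (-0.23) and, by far more, SLC39A10 fell.

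The MT1X promoter shows how such motifs lie in the window used here, which runs from 250 bases before to 50 after the annotated start (RefSeq, GRCh38.p14). Metal response element cores, TGCGCNC or TGCACNC on either strand and bound by the zinc sensor MTF1, are in capitals, and there were 4 of them, none overlapping another.
MT1X, chr16:56682220-56682519, strand +: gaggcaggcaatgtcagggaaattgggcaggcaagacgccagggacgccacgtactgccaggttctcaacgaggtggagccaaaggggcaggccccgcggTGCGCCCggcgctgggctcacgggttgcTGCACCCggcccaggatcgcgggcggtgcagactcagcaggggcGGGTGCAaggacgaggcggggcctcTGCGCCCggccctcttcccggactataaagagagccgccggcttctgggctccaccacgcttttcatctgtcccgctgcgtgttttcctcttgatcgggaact
A core of this kind was found in 29.6% of 35116 annotated promoters and in 10 of the 14 promoters matched for the metallothionein and zinc list. It was found in 38.8% of matched promoters of genes called higher and in 36.5% of those called lower. The antioxidant response element core TGACNNNGC was found in 13.3% of all promoters and in 6 of 34 matched for the NRF2 list. For genes called higher and lower its shares were 14% and 13.5%. These are matches of letters and not measured binding sites.

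ATF4, translated when eIF2α is phosphorylated, drives genes of amino acid supply and of stress. Of 47 such genes 8 rose (17%), 3 fell (6.38%) and 36 were not called, against 6.13% higher and 7.21% lower of all genes. The median was 0.03 against 0.01 over all genes. GDF15 and SESN2 are on this list too. DDIT4, an inhibitor of mTORC1, read 7.51, 7.92 and 7.91 with IL-1β alone and 8.01, 8.88 and 9.09 with alloxan (0.88 ± 0.35, adjusted p = 0.000515). The transcription factor ATF5 rose by 0.79 ± 0.31 (adjusted p = 0.000967), while the mitochondrial folate enzyme ALDH1L2 fell (-0.70 ± 0.12, adjusted p = 0.000432). The number higher was 5, 7 and 6 without experiments 1, 2 and 3, and 5 without the alloxan array of experiment 3 or the IL-1β array of experiment 1. Chaperones and sensors of the endoplasmic reticulum, the unfolded protein list, had 3 of 36 members higher and 11 lower (30.6% against 7.21% of all genes), with a median of -0.11. The COPII coat gene SEC24D (-0.46), the disulfide isomerases PDIA4 (-0.33) and PDIA6 (-0.25), the ER-resident factor MANF (-0.40) and the transcription factor XBP1 (-0.43) were among those that fell. The number lower was 4, 6 and 5 without experiments 1, 2 and 3 and 7 without the alloxan array of experiment 1.

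Genes of glucose use rose in part. Alloxan enters cells on glucose transporters. Of 18 genes of transporters and hexokinases 4 were higher (22.2%) and 1 lower (5.56%), against 6.13% and 7.21% of all genes. SLC2A3, the transporter GLUT3, read 7.26, 7.96 and 8.09 with IL-1β alone and 7.90, 8.94 and 8.97 with alloxan (0.84 ± 0.18, adjusted p = 0.000405). SLC2A14 rose by 0.46, but the pair is near-identical in sequence and cannot be kept apart with certainty. Hexokinase HK2 (0.36) and SLC2A8 (0.26) rose, and the sodium and inositol cotransporter SLC5A3 fell (-0.37). TXNIP, an arrestin that limits glucose uptake and is itself raised by glucose metabolites through MondoA, read 9.93, 10.95 and 10.75 with IL-1β alone and 10.69, 11.63 and 11.58 with alloxan (0.76 ± 0.077, adjusted p = 0.000115). Of 11 MondoA and ChREBP targets only TXNIP and PFKFB3, the enzyme that makes the activator of phosphofructokinase (0.48), were called. In the wider list of hypoxia and glycolysis genes 10 of 40 rose (25%) and 1 fell (2.5%), with a median of 0.07. KDM3A, a histone demethylase (0.40), and EGLN1, the oxygen sensor of HIF (0.42), were among those higher. Those counts were 6, 5 and 4 higher without experiments 1, 2 and 3.

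Genes of lipid synthesis that were called all fell. Of 15 genes of fatty acid synthesis 8 fell (53.3% against 7.21% of all genes) and 0 rose, with a median of -0.20. ACACA, acetyl-CoA carboxylase and the committed step, read 9.62, 10.38 and 10.76 with IL-1β alone and 8.95, 9.86 and 10.01 with alloxan (-0.65 ± 0.11, adjusted p = 3.53e-05). The elongase ELOVL6 differed by -0.69 ± 0.10 (adjusted p = 4.16e-05), the desaturases FADS1 by -0.46 ± 0.14 (adjusted p = 0.00169) and FADS2 by -0.22 ± 0.077 (adjusted p = 0.02), and fatty acid synthase FASN by -0.39 ± 0.092 (adjusted p = 0.00916). The list has few genes, and its count was 2, 3 and 4 without experiments 1, 2 and 3. It was 4 or 5 without any 1 of the alloxan arrays and 4 without the IL-1β array of experiment 1 or 2. Of 19 cholesterol synthesis genes 3 fell (15.8%) and 0 rose, with a median of -0.12. They were LSS (-0.45), MSMO1 (-0.28) and DHCR7 (-0.26), and their number was 1, 0 and 5 without experiments 1, 2 and 3. It was 1 without any 1 of the 3 alloxan arrays or the IL-1β array of experiment 1 or 2, and 5 without the IL-1β array or the array of GlcN with alloxan of experiment 3.

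Many genes of the extracellular matrix, the product by which synovial fibroblasts shape the joint lining, fell. Of 36 matrix glycoproteins and proteoglycans 16 were lower (44.4%) and 2 higher (5.56%), with a median of -0.19. Of all genes 7.21% were lower and 6.13% higher. The fibrillins FBN2 (-0.73 ± 0.036, adjusted p = 7.03e-05) and FBN1 (-0.56), the laminin chain LAMB1 (-0.56), the adhesion modulator TNC (-0.72) and the basement membrane proteoglycan HSPG2 (-0.63) had the smallest p-values. The number lower was 6, 8 and 12 without experiments 1, 2 and 3. Of 32 collagens 9 were lower (28.1%) and 0 higher. COL1A2, a chain of type I collagen, read 8.68, 9.22 and 9.72 with IL-1β alone and 7.52, 8.64 and 9.0 with alloxan (-0.82 ± 0.30, adjusted p = 0.00189). Its partner COL1A1 differed by -0.68, COL12A1 by -0.56, COL8A1 by -0.74 and COL11A1 by -0.65. The median over all collagens was near 0 (-0.04), and 23 of the 32 were not called. The number lower was 5, 5 and 7 without experiments 1, 2 and 3 and 5 without the alloxan array of experiment 3 or the IL-1β array of experiment 1. Of 38 matrix proteases and their inhibitors 10 fell (26.3%) and 1 rose (2.63%). ADAM12 read 7.89, 9.32 and 9.84 with IL-1β alone and 6.93, 8.10 and 8.68 with alloxan (-1.12 ± 0.14, adjusted p = 0.000463). The aggrecanase relatives ADAMTS12 (-0.80) and ADAMTS3 (-0.46), the gelatinase MMP2 (-0.66) and the plasminogen activator PLAT (-0.58) fell too. The number lower was 4, 8 and 3 without experiments 1, 2 and 3. Matrix and fibroblast lists share members. The 6 of 18 fibroblast markers that fell included PDGFRB, the PDGF receptor β (-0.80), FN1 (-0.34) and COL3A1 (-0.57).

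Targets of YAP and TAZ, the coactivators that read cell shape and contact, had 10 of 30 lower (33.3% against 7.21% of all genes) and 3 higher, with a median of -0.17. TGFB2 and RBMS3 are among those lower, with MYOF (-0.67), CRIM1 (-0.30) and FJX1 (-0.44). The number lower was 6, 7 and 4 without experiments 1, 2 and 3. The 3 higher became 0 without the alloxan array of experiment 1 and 1 without that of experiment 3 or the IL-1β array of experiment 1 or 2. The 11 targets over 100 kb had 5 lower, 0 higher and a median of -0.28, and the 19 shorter ones 5 lower, 3 higher and a median of 0.02. Targets of TGF-β itself were split, 6 higher (18.2%) and 5 lower (15.2%) of 33. In the cell cycle 7 of 44 mitosis genes fell (15.9%) and 0 rose, led by the kinesin CENPE (-0.69), the APC/C activator CDC20 (-0.20), CCNB1 (-0.24) and CCNF (-0.27). The medians of the mitosis list were -0.11, 0.04 and -0.15 in the 3 experiments, and the number lower was 0, 5 and 0 without experiments 1, 2 and 3 and 2 or 3 without either array of experiment 1 or 3. Of 45 DNA replication genes 9 rose (20%) and 2 fell (4.44%). The origin licensing factor CDT1 (0.63), the GINS subunit GINS3 (0.45) and CCNE2 (0.34) rose, and the polymerase α subunit POLA1 fell (-0.35). The number higher was 2, 1 and 3 without experiments 1, 2 and 3, and between 3 and 5 without any 1 alloxan array or the IL-1β array of experiment 2 or 3. Of 62 ribosomal protein genes 10 rose (16.1%) and 0 fell, with a median of 0.12. RPL10 (0.37), RPL27A (0.48) and RPS23 (0.21) led them. Their many pseudogenes can share probes, and 2, 0 and 2 were called without experiments 1, 2 and 3. It was 2 or 4 without any 1 alloxan array or the IL-1β array of experiment 2 or 3. Of 47 autophagy and lysosome genes 7 rose (14.9%) and 3 fell (6.38%), and of 17 iron handling genes 3 (17.6%) and 3 (17.6%). Of 37 respiratory chain genes 1 rose (2.7%) and 0 fell. Of all genes 6.13% rose and 7.21% fell. Of 9 targets of the aryl hydrocarbon receptor NQO1 alone was called.

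**Figure D3:**
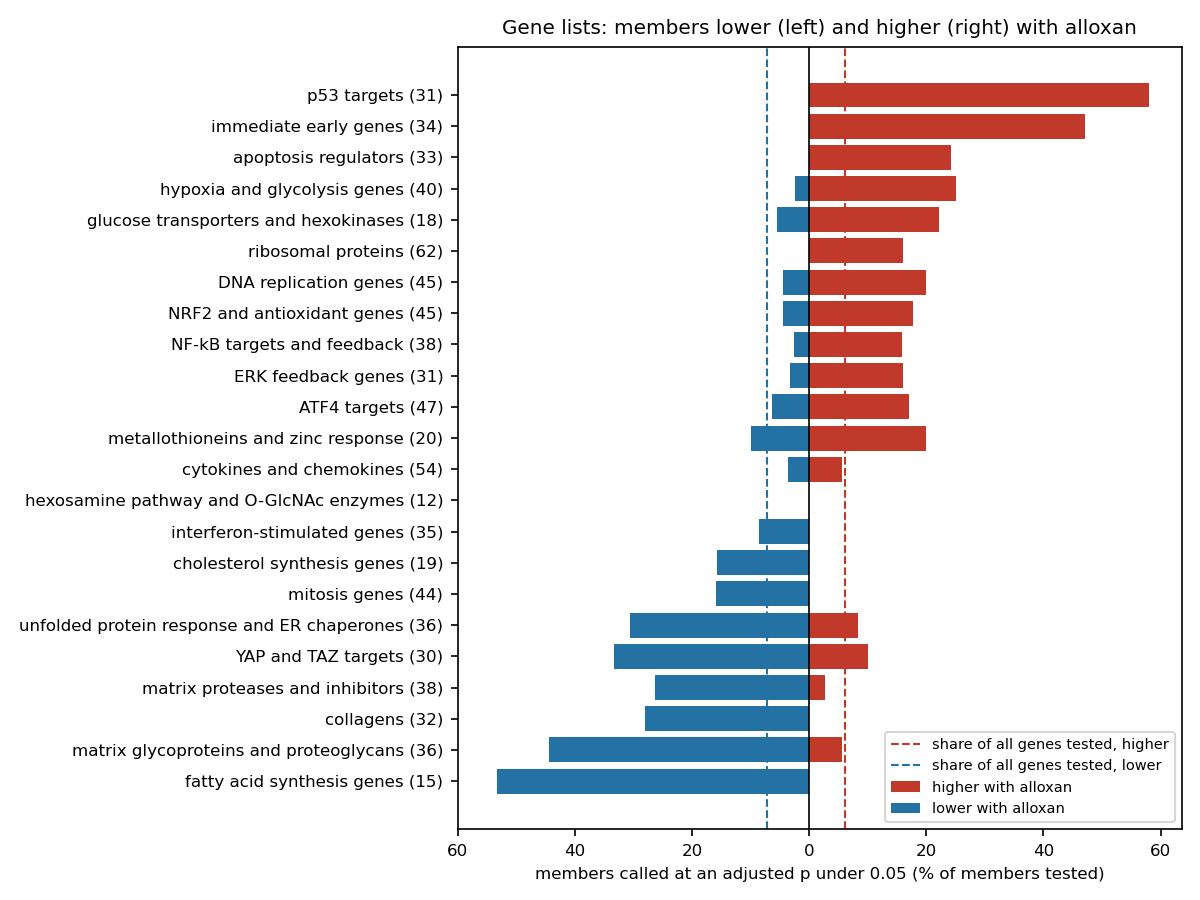
Share of tested members (x axis, %, number tested in brackets) of 23 gene lists called higher (red, right) or lower (blue, left) with alloxan in limma at an adjusted p under 0.05. Dashed lines give the same shares of all 16872 genes, 6.13% and 7.21%. The p53 targets and immediate early genes stand at the top, and the fatty acid synthesis and matrix glycoprotein genes at the bottom.

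Small RNAs were read from their gene loci. For the microRNA genes a value cannot be taken as that of the mature RNA, since which form gave the signal was not measured. Of 89 microRNA genes 4 fell and 0 rose, 4.49% against 7.21% of all genes. Their mature forms are given from RefSeq with the seed (bases 2 to 8), which pairs with targets, in capitals, since the 4 loci hold different seeds and so different target sets.
hsa-miR-21-5p (MIR21): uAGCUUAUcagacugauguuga
hsa-miR-221-3p (MIR221): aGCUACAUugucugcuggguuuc
hsa-miR-503-5p (MIR503): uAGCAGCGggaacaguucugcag
hsa-let-7a-5p (MIRLET7A2): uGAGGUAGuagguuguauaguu
MIR21 read 8.58, 9.28 and 8.91 with IL-1β alone and 8.23, 8.81 and 8.22 with alloxan (-0.51 ± 0.17, adjusted p = 0.0411). MIR221 differed by -0.63 ± 0.26 (adjusted p = 0.0372), MIR503 by -0.47 ± 0.17 (adjusted p = 0.00996) and MIRLET7A2, 1 of several genes for let-7a, by -0.64 ± 0.13 (adjusted p = 0.0173). All 4 fell in each of the 3 experiments. The number lower was 1, 1 and 2 without experiments 1, 2 and 3. It was 0 without the alloxan array of experiment 1, 1 without that of experiment 3, and 2 without the IL-1β array of experiment 2 or 3 or the array of GlcN with alloxan of experiment 1. C/D box snoRNAs had medians of opposite sign between experiments (0.20, -0.32 and 0.12 in experiments 1, 2 and 3), and 3 of 81 rose (3.7%) and 0 fell. Of 57 H/ACA box snoRNAs 3 rose (5.26%) and 0 fell, and of 11 spliceosomal RNAs 1 rose (9.09%) and 0 fell. Replication-dependent histone genes, which are near-identical copies and so uncertain one by one, had 4 of 56 higher (7.14%) and 3 lower (5.36%). Of all genes 6.13% rose and 7.21% fell, so these counts lie near that share.

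Genes that fell were longer than the rest. This pattern was looked for after the values had been seen, and the span of each gene from its first to its last annotated base was taken from RefSeq (GRCh38.p14) by gene ID. Over 15633 protein-coding genes the median span was 108 kb for those called lower, 21.8 kb for those called higher and 27.4 kb for all. The share called lower was 1.86% among genes up to 5 kb, 4.75% between 20 and 50 kb, 14.3% between 100 and 200 kb, 27.7% between 200 and 400 kb and 42.3% between 400 and 800 kb. It was 38% in the 100 genes over 800 kb. The share called higher went from 8.54% between 20 and 50 kb to 2.43% between 100 and 200 kb and was 0.589% (7 of 1188) over 200 kb. Of the 15 largest falls 12 were in genes over 100 kb, among them TENM2 (1285 kb), PCDH15 (1825 kb), DPYD (843 kb) and RBMS3 (729 kb), while CD180 (17.2 kb) and GRPR (30 kb) are short. Of the 15 largest rises 2 were in genes over 100 kb. Of all 15633 protein-coding genes 2833 are over 100 kb, so the count among the rises lies near that share.

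The trend was steeper where signal was high. Among genes whose mean over the 15 arrays reached the median gene, 84.6% of the 26 genes over 800 kb, 73% of 100 genes between 400 and 800 kb and 3.2% of 718 genes up to 5 kb were called lower. Over 200 kb the median difference was -0.10, -0.01 and -0.17 in experiments 1, 2 and 3, so experiment 2 showed the least of it. Between 182 and 378 of the 1188 genes over 200 kb were called lower when 1 array or experiment was left out, lowest without experiment 3, against 384 with all arrays. For alloxan added to GlcN, in arrays that this comparison does not use, the median over 200 kb was -0.13. The GlcN comparison, which shares the IL-1β arrays, had 0.01 there, and IL-1β against resting cells, which shares them as well, had -0.01. The gene lists differ in span too. The matrix glycoproteins over 100 kb had 6 of 8 lower, and those up to 100 kb 10 of 28, against 21.9% and 4.42% of all protein-coding genes of these spans. For the collagens it was 6 of 17 and 3 of 15. Of the p53 targets 30 of 31 were up to 100 kb, with 17 higher and a median of 0.25 against 0.03 for all genes of that span, of which 7.54% were higher. The part of gene span in any of these differences was not tested.

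**Figure D4:**
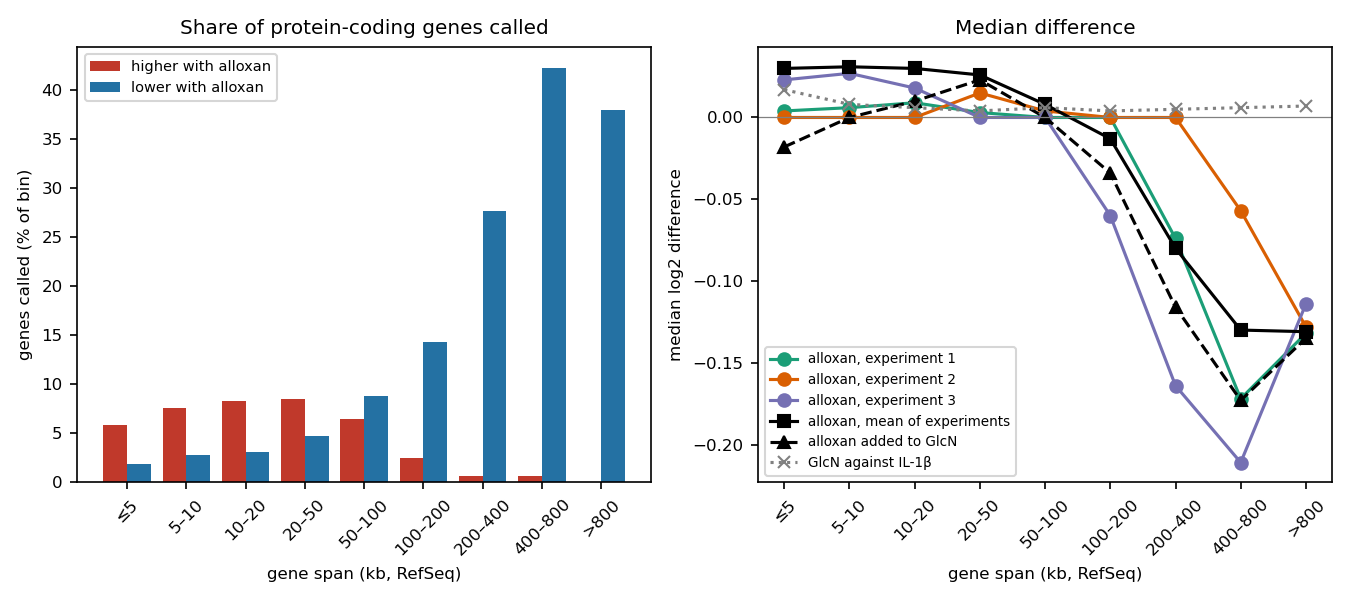
Left, share of protein-coding genes called higher (red) or lower (blue) with alloxan in each bin of gene span (x axis, kb). Right, median log2 difference per bin for the 3 experiments, their mean, alloxan added to GlcN, and GlcN against IL-1β. The share called lower goes from 1.86% in the shortest bin to 42.3% between 400 and 800 kb, and the median of the mean difference lies below 0 from 100 kb on, while experiments 1 and 2 reach that side in longer bins.

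Alloxan had also been given on top of GlcN, in the same experiments but on arrays that share none with this comparison. Both comparisons came from the same limma fit and share its estimate of the spread of each gene. Passing the threshold in both is therefore not independent. There 551 genes (3.27%) were higher and 594 (3.52%) lower with alloxan than with GlcN alone. Without experiments 1, 2 and 3 these were 211, 66 and 20 higher and 216, 152 and 137 lower, and 0 passed in either direction without the block or over only the groups compared. Of the 1034 genes that rose without GlcN 93.4% had a positive difference with it, against 46.4% of all genes, and 22% passed the threshold there. Of the 1216 that fell 93.1% had a negative difference, against 52.7% of all genes, and 34.9% passed. The differences were smaller, with medians of 0.16 against 0.31 for the first set and -0.20 against -0.38 for the second. The sets were chosen on the arrays without GlcN, so their sizes there are a description. Across all genes the differences correlated with r = 0.58, a description over genes of 1 line. EGR1 rose by 1.37 on GlcN as it did without it, TXNIP by 0.72, and TENM2 fell by 1.22. CD180 differed by -0.22 there (adjusted p = 0.622), but GlcN itself had lowered it by 2.9 against IL-1β alone. With GlcN it read 4.25, 5.89 and 5.54, where the 20th percentiles of the arrays were 4.18, 5.09 and 5.58. With GlcN and alloxan it read 4.42, 5.11 and 5.49, so it was lower in experiment 2 and little changed in experiments 1 and 3. Whether the low level with GlcN limited the alloxan difference was not tested. The p53 targets had 6 of 31 higher with GlcN present and a median of 0.13, and the immediate early genes 10 of 34 and 0.14.

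The alloxan difference itself differed between the backgrounds in 12 genes by the interaction term of the limma fit. It was higher without GlcN in 10 (0.0593% of genes) and lower in 2 (0.0119%). The study lists GDF15, SESN2, HDDC3, THG1L and IL20RB as raised by GlcN itself, and ZNF114 and CCBE1 as lowered by it. In limma GlcN differed from IL-1β alone by 0.96 for GDF15, 0.88 for THG1L and -1.07 for CCBE1. For these genes the alloxan difference on GlcN was thus read from changed levels. GDF15, which rose without GlcN, read 9.87, 10.69 and 10.81 with GlcN and 9.76, 10.78 and 11.17 with GlcN and alloxan. It was not called with alloxan on GlcN (0.11, adjusted p = 0.562), and the alloxan differences of both backgrounds differed by 1.52 ± 0.15 (SE, adjusted p = 0.00515). SESN2 read 8.34, 9.41 and 9.84 with GlcN and 8.16, 9.34 and 9.81 with GlcN and alloxan, and its differences parted by 0.89 ± 0.09 (SE, adjusted p = 0.00515). HDDC3 (0.84) and THG1L (0.76) parted in the same direction, and THG1L was also called higher with alloxan on GlcN (0.31, adjusted p = 0.0269). IL20RB, a subunit of the receptors for IL-20 family cytokines, was not called without GlcN (0.21 ± 0.15, adjusted p = 0.363). On GlcN it read 8.23, 8.72 and 8.63 with GlcN and 6.41, 7.21 and 7.66 with GlcN and alloxan, a fall of -1.43 (adjusted p = 0.000243). In the other direction ZNF114 fell without GlcN (-0.88) and read 0.30 higher on GlcN without passing the threshold there (adjusted p = 0.148), and CCBE1 differed by -1.23 without GlcN and by -0.58 with it. In the interaction 0 genes passed in either direction without experiment 1, 2 or 3, and counts without single arrays ran from 2 to 14 higher and from 0 to 25 lower, the latter without the GlcN array of experiment 1.

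The promoter of IL20RB holds the core of the element bound by ATF4. This core, TGATGNAA on either strand, was found in 3.62% of 35116 annotated promoters and in 11 of 38 matched promoters of the ATF4 list. Among genes called with alloxan without GlcN its shares were 1.53% of those higher and 2.86% of those lower. The core is in capitals in the promoter of IL20RB, where it was found 76 bases before the annotated start, on the strand of the gene.
IL20RB, chr3:136957733-136958032, strand +: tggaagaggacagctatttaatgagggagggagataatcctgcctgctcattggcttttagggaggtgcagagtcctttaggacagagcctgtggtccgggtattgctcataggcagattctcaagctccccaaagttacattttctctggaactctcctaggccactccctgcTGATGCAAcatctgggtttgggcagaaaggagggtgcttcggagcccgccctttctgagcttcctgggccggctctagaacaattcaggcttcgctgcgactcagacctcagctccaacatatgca
The match is a description of the letters in this window. Of 47 ATF4 targets 0 rose and 11 fell when alloxan was added to GlcN, with a median of -0.25, and 8 rose and 3 fell without GlcN, with a median of 0.03. Of all genes 3.27% and 3.52% were called higher and lower on GlcN and 6.13% and 7.21% without it. Of the targets named above the study lists GDF15, SESN2, DDIT4 and ALDH1L2, but not ATF5, as raised by GlcN itself. The difference between backgrounds was not tested for the list.

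**Figure D5:**
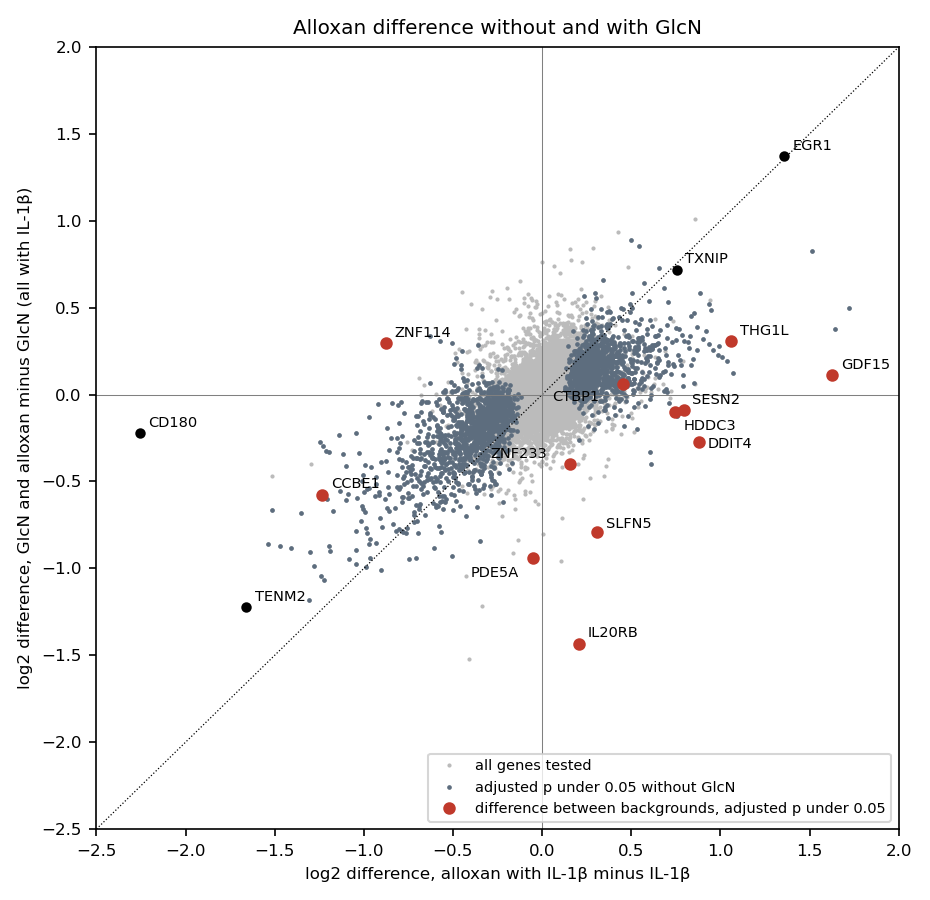
Log2 difference with alloxan in the absence of GlcN (x axis) against that in its presence (y axis), 1 point per gene, all with IL-1β. Dark points are genes called without GlcN, red points the 12 genes whose differences differed between backgrounds, and the dotted line is equality. EGR1 and TXNIP lie near the line, and GDF15 and IL20RB lie far to the right of or below it. CD180, which GlcN itself had already lowered, is lower mainly on the x axis.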

How the data were processed

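The series holds 15 Affymetrix Human Gene 1.0 ST arrays of MH7A RNA, of which 6 form the comparison. The deposited values are log2 signals that the authors made with RMA in Affymetrix Expression Console, with no version named in the sources. Value distributions were alike within an experiment and shifted between experiments, so pairing was used. After subtraction of group means, arrays with equal numbers correlated, with r from 0.66 to 0.84 over the 3 pairs of the 6 arrays, against -0.61 to -0.26 over the 6 pairs of different experiments and groups. With 3 arrays per group the subtraction itself pulls values between experiments below 0, so the negative range is no separate reason for pairing. The methods' test was an unpaired t-test. The labels say that the experiment was repeated 3 times and do not say more of how the cultures were kept apart. The p-values rest on the spread that remained between these repeats after the block, pooled over all 15 arrays and moderated. No arrays were duplicates (highest r between any 2 was 0.998).

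Of 33297 transcript clusters 19460 carried 1 gene symbol in the platform annotation, 1754 several and 12083 no listed symbol. Clusters with several were left out, 19429 were named through a gene ID in RefSeq, and the brightest cluster of each of 18417 symbols was kept. Genes at or above the 20th percentile of an array on at least 3 arrays were tested (16872). Equal values on 2 arrays were kept as deposited. Conditions were compared in R 4.3.3 by limma 3.58.1 (a linear model with eBayes moderation, two-sided, Benjamini-Hochberg over all genes, 8 residual degrees of freedom, 11.1 after moderation), over all 15 arrays with the experiment as an additive block. The number of arrays limits the precision. The fits were tested on simulated data. Members, gene lists and named genes (the 15 largest called changes in each direction, up to 5 per list by p, a set of cytokine and O-GlcNAc genes, and the interaction genes) were chosen with earlier results of these data known, and other genes are named in figures only. No list was tested as a set. Alternatives were other pairings, groups, filters, clusters, normalizations, moderation, the methods' t-test and leaving out arrays or experiments. Figures were drawn with matplotlib 3.10.9 in Python 3.11.15. Sequences and gene spans came from RefSeq (GRCh38.p14).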

Additional observations from a re-analysis of the deposited data

Results flagged for a closer look

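In 12 genes the alloxan difference on IL-1β alone differed from that on IL-1β with GlcN by the interaction term of the limma fit, at an adjusted p under 0.05. The difference between backgrounds, in log2 units, was 1.52 for GDF15, 0.89 for SESN2, 1.64 for IL20RB, 0.84 for HDDC3, 0.76 for THG1L and 1.15 for DDIT4. For ZNF233 it was 0.55, for SLFN5 1.1, for PDE5A 0.89 and for CTBP1 0.39. Of these genes ZNF233, SLFN5, PDE5A and CTBP1 were named after their values were seen. For ZNF114 it was -1.17 and for CCBE1 -0.66, so their alloxan difference was lower without GlcN. The study lists all of these genes except ZNF233 and CTBP1 as changed by GlcN itself. In every case the 4 groups came from the same 3 experiments. With any 1 experiment left out 0 of these 12 passed the threshold.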

How the results depend on the processing

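The calls rest on the pairing by experiment and on the spread of all 15 arrays. Without the replicate block 0 genes passed the adjusted threshold in either direction for alloxan alone, for alloxan added to GlcN and for the difference between backgrounds, and the study's thresholds of 1.5-fold and unadjusted p left 5 genes higher and 23 lower. With the block but no arrays beyond those compared, 0 and 0 passed for alloxan alone and 0 and 0 for alloxan added to GlcN, while 7 genes were higher and 4 lower in the difference between backgrounds. The methods' t-test gave 0 in either direction after Benjamini-Hochberg adjustment and 2 and 5 at the study's thresholds. All 133 of 148 named genes that were called lost their call in these 3 settings, with no change in direction. The difference between backgrounds had 16 genes higher and 7 lower after quantile normalization, 8 lower with the 50th percentile filter, 4 lower with an intensity trend and 1 lower after a shift to equal medians. Under the filters, cluster means, normalizations and moderation the counts over all genes for alloxan alone and for alloxan added to GlcN stayed within 1.5 times. Some list counts did not. The shift to equal medians left 5 fatty acid genes lower in place of 8 and 11 genes over 200 kb higher in place of 7. The 50th percentile filter gave 5 cholesterol and 5 interferon genes lower in place of 3 each and 2 microRNA genes in place of 4. Matrix glycoproteins higher went from 2 to 1 after quantile normalization or with no filter, and NF-κB targets lower from 1 to 2 with the intensity trend and to 0 after quantile normalization or the shift.

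With 1 array or 1 experiment left out, 263 to 1065 genes were higher and 405 to 1270 lower with alloxan, and 79 to 178 and 228 to 282 at 1.5-fold. For alloxan added to GlcN the ranges were 20 to 853 higher and 137 to 702 lower, and for the difference between backgrounds 0 to 14 and 0 to 25. Leaving out arrays of GlcN or of GlcN with alloxan was chosen after seeing the data. Counts for alloxan alone were lowest without experiment 1 (263 higher) and experiment 3 (405 lower). Among genes that were not called, OGA, between -0.052 and 0.066 with arrays left out, turned to 0.016 after the shift to equal medians, 0.066 without experiment 3, and 0.046 and 0.035 without its alloxan or IL-1β array. IL24, between -0.012 and 0.254, turned negative without the IL-1β array of experiment 1. TNFRSF9, from -0.215 up, turned to 0.056 without experiment 1, 0.202 without its IL-1β array and 0.061 without the alloxan array of experiment 2, and GFPT1, from -0.149 up, to 0.008 without the IL-1β array of experiment 3. The causes were not tested. Genes near background on these arrays could show only small differences.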
